A study of Mus musculus with 12 samples.

Results

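The genes described here encode 37 proteins that the liver secretes into blood plasma: albumin and other carriers, apolipoproteins, clotting factors, protease inhibitors, 2 proteins of complement and the major urinary proteins. They were selected on values measured in these arrays, because transcripts of this kind stood higher in hearts of mENT1 knockout mice than in wild type hearts. The 37 are set against 27670 genes or unnamed probes on the array, and 51 probes measure them. In heart, the knockout and wild type values and the counts of calls are therefore given as a description from which nothing is inferred. The knockout and wild type kidneys, on which the choice did not rest, were tested. Earlier results of these data were known when the members were chosen, so the kidney tests are not fully independent of the choice.

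The study measured RNA of mENT1 knockout hearts, wild type hearts, mENT1 knockout kidneys and wild type kidneys on 12 Agilent arrays, 3 per group, all on the FVB/N mouse background. mENT1, encoded by Slc29a1, is an equilibrative transporter through which nucleosides such as adenosine pass the cell membrane. The age and sex of the mice and the way in which the gene was disrupted are not given in the sources used here. Arrays of a group carry the letters a, b and c.

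Hepatocytes make most plasma proteins and release them into the circulation, so their mRNAs are among the most abundant in liver. Transcription of these genes in hepatocytes depends on factors such as HNF1, HNF4 and the C/EBP family, which bind close to the start site. Apolipoproteins are the protein part of lipoproteins, which carry cholesterol and triglycerides between liver, gut and other tissues. Kidney tubule cells also make some of these transcripts. Major urinary proteins are small carriers of pheromones that male mouse liver produces in large amounts under the control of androgen and growth hormone and that pass into urine.

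All levels are log2 signals of a probe after subtraction of the 75th percentile of its array, so a level of 0 is the signal at that percentile, and a level is compared between arrays for the same probe only. Each difference is the knockout mean minus the wild type mean and stands with its standard error (SE) from the limma fit of 3 arrays against 3. That percentile ran from 451 to 878 intensity units over the arrays, and no member was saturated on any array. Slc29a1 stood at 1.38, 0.59 and 1.53 in knockout hearts against 3.15, 3.23 and 3.36 in wild type hearts, and at -1.43, -1.30 and -1.43 in knockout kidneys against 1.51, 1.27 and 1.62 in wild type kidneys. The columns of the authors' deposited table follow the scanner array of the opposite genotype, and the labels of the scanner files were kept because of these Slc29a1 levels. With the labels of that table each direction below would turn round. Xist, an RNA made from the inactive X chromosome of females, had signal on knockout hearts a and b (1.70 and 1.69) and knockout kidney a (1.21) and lay at or below -7.97 on the other arrays. The 3 knockout hearts shared 1 slide and the 3 wild type hearts another, so an effect of slide and one of genotype cannot be told apart there. Knockout kidney a was the only array on its slide, so what is particular to that slide and to that kidney cannot be told apart. The labels do not say that the arrays of a group come from separate extractions, so p-values measure the spread between these arrays. In whole tissue, more cells of a type and more RNA per cell cannot be told apart.

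Several of the sequences behind the results are printed here because they show what the probes and the promoters hold. The probe of Alb lies on chromosome 5 (chr5:90443687-90443746, plus strand, build mm7 as the files give it) and the probes of Mup1 (chr4:60420781-60421004, minus strand) and Mup5 (chr4:61268759-61268818, minus strand) on chromosome 4. The probe of Mup1 is listed in the files under 3 RefSeq records of the family, that of Mup5 among them, so signal of near-identical family members can be shared. Each probe has 60 bases.
Alb probe: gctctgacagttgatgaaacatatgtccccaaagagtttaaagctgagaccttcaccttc
Mup1 probe: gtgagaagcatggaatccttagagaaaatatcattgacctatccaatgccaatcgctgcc
Mup5 probe: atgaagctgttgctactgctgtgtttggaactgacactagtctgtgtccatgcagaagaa

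RefSeq promoters (build GRCm38.p6, 250 bases before to 50 bases after the start site) were matched by symbol for 26 of the 37 members, the others being Ttr, Trf, Hp, Apoc1, Apoc3, Apof, Plg, Kng1, Serpina3k, Mup1 and Mup5. Alb, Fgb and Gc are shown because their levels stood apart between knockout and wild type hearts, and Serpina1d because its levels did not. Capitals mark 2 motifs searched on both strands, GTTAAT (HNF1) and TTGCNNAA (C/EBP). The Alb promoter is chr5:90460620-90460919 on the plus strand, that of Fgb chr3:83049814-83050113 on the minus strand, that of Gc chr5:89457849-89458148 on the minus strand and that of Serpina1d chr12:103773584-103773883 on the minus strand.
Alb promoter: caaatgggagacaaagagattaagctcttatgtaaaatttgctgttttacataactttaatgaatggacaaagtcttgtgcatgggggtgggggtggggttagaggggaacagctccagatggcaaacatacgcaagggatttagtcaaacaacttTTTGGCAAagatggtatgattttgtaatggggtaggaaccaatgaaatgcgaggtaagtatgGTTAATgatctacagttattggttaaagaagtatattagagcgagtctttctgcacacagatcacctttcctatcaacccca
Fgb promoter: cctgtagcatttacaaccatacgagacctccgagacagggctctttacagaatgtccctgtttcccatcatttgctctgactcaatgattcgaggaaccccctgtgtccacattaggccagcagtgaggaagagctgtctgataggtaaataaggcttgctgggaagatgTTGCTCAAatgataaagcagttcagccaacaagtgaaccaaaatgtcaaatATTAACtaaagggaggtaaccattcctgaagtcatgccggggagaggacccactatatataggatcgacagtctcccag
Gc promoter: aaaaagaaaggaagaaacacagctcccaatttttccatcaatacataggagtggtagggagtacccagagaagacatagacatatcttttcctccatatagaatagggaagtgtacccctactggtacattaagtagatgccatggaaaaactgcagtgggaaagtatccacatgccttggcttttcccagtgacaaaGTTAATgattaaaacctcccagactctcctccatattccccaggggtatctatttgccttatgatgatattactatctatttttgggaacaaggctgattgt
Serpina1d promoter: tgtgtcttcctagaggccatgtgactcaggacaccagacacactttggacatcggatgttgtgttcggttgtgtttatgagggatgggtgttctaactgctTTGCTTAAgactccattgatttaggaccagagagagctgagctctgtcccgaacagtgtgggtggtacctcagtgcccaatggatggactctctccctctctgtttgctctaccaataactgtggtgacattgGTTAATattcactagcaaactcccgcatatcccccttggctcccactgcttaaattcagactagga
The HNF1 motif begins at -32 from the start site in Alb, at -29 in Fgb, at -52 in Gc and at -16 in Serpina1d. The C/EBP motif begins at -94 in Alb, at -80 in Fgb and at -149 in Serpina1d. Of the 26 promoters' genes, 8 held the HNF1 motif (Alb, Gc, Apoc2, Fga, Fgb, F2, Serpina1d and Itih1), against 8.24% of all 27025 genes in the promoter table. The C/EBP motif was held by 10 of 26, against 12.2% of all genes. The TATA box motif TATAAA was held by 6 of 26, against 15.7%, and the HNF4 motif CAAAGTCC by 0 of 26, against 1.63%. No searched motif contains another, though their ends can overlap. Alb and Serpina1d each hold both of the first 2 motifs, and their knockout minus wild type differences in heart were 3.57 and -0.15.

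In hearts, 33 of the 37 members entered the fit, which took genes with signal well above background on every array of either genotype. Ttr, Fga, Itih1 and C9 did not. Of the 33, 10 entered through the knockout hearts alone (Apoa1, Apoa5, Apob, Apoc3, Apof, F2, Kng1, Serpinc1, Mbl2 and Mup5), an entry that favours a difference. The knockout mean was above the wild type mean for 30 of the 33, where this held for 42.2% of all genes tested, and the members' median difference was 2.83, where the median of all genes was -0.07. All 3 knockout hearts lay above all 3 wild type hearts for 23 of the 33, against 9.14% of all genes. At an adjusted p under 0.05 in limma 14 of the 33 were called higher in knockout hearts and 0 lower, against 0.578% of all genes called higher. Because the members were picked on this contrast, nothing is read from these counts. With the letters as a replicate block, which pair the hearts, limma called 3 of the members higher (Apoc4, Apof and Kng1), against 0.286% of all genes. With knockout heart c as the lone knockout, which leaves the hearts without Xist signal, it called 9 higher, against 1.52% of all genes. That fit takes its spread from the 3 wild type hearts and assumes the same spread for knockouts.

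**Figure D1:**
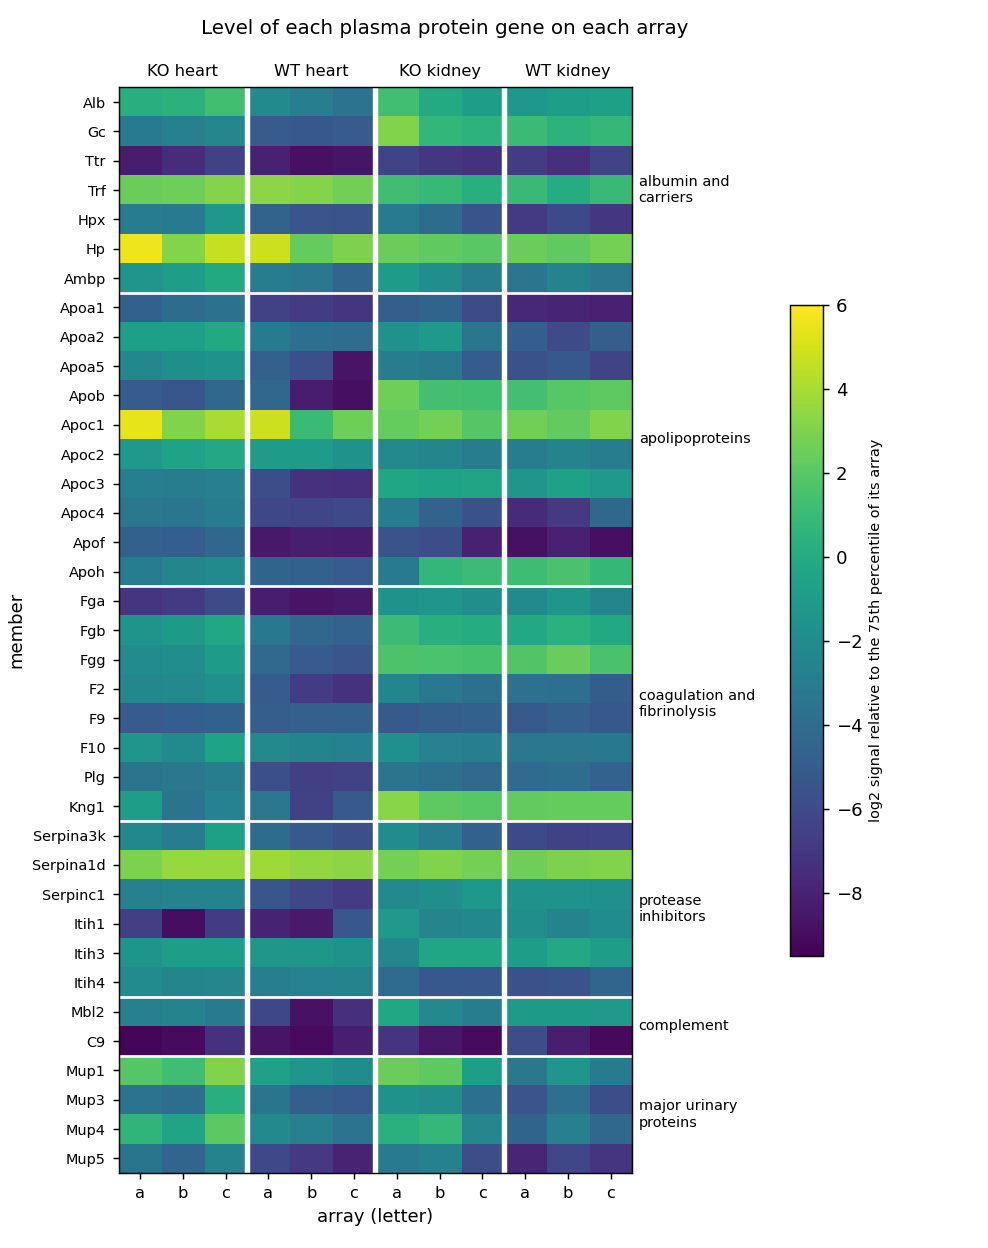
Level of each of the 37 genes (rows, grouped by role) on each of the 12 arrays (columns, letters a, b and c within each group), as log2 signal relative to the 75th percentile of its array. Alb, most apolipoproteins and the fibrinogen chains are brighter in the knockout heart columns than in the wild type heart columns, while Trf, Serpina1d and F9 overlap between the genotypes, and Fgg, Kng1 and Apob are brightest in kidney.

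Among the carriers, albumin itself stood apart in hearts. Alb, the main protein of plasma, was at 0.31, 0.46 and 1.34 in knockout hearts against -2.13, -2.85 and -3.62 in wild type hearts. The lowest knockout heart lay above the highest wild type heart, and the difference of 3.57 ± 0.44 corresponds to an 11.8-fold higher signal. Gc, the vitamin D binding protein, stood at -3.17, -2.76 and -2.33 in knockout hearts against -5.07, -5.24 and -5.02 in wild type hearts, 5.12-fold higher. Its wild type hearts were closer together than those of Alb. Hpx, which binds free haem, was at -3.02, -3.05 and -1.23 in knockout hearts against -4.54, -5.42 and -5.47 in wild type hearts (difference 2.71 ± 0.54). Ambp, the precursor of alpha-1-microglobulin and bikunin, was at -1.36, -0.84 and -0.10 in knockout hearts against -3.0, -3.36 and -4.43 in wild type hearts (2.83 ± 0.46). For both, knockout heart c was the highest heart and no array overlapped with the other genotype.

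The other carriers did not share this pattern. Trf, the iron carrier transferrin, was at 2.5, 2.59 and 3.14 in knockout hearts and at 3.32, 3.11 and 2.73 in wild type hearts, a difference of -0.31 ± 0.24 with overlapping groups. Hp, which binds free haemoglobin, stood at 5.63, 3.12 and 4.66 in knockout hearts against 4.84, 2.31 and 2.94 in wild type hearts. Its spread within each genotype exceeded the difference of 1.10 ± 0.84. The genes of an adipocyte list varied along with it: the medians of the 7 genes relative to their wild type means were 2.73, 0.82 and 2.05 on the 3 knockout hearts (a, b, c) and 2.14, -1.61 and -0.49 on the 3 wild type hearts (a, b, c), with all 7 well above background and summed levels of 6.72 to 8.06 in knockout hearts and 4.33 to 7.85 in wild type hearts. The part of fat cells in the Hp values was not tested. Ttr, the carrier of thyroid hormone, was well above background on 0 of 3 knockout hearts and 0 of 3 wild type hearts.

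Apolipoproteins of high density lipoprotein were higher in knockout hearts. Apoa1, the main protein of that particle, was at -4.69, -4.01 and -3.72 in knockout hearts against -6.52, -6.82 and -7.15 in wild type hearts, where no array was well above background. The signal was at least 5.83-fold higher, a bound set against the lowest signal well above background on each array or the probe's own. Apoa2, the second protein of the particle, was well above background on every heart and stood at -0.75, -0.72 and -0.08 in knockout hearts against -3.19, -3.84 and -3.97 in wild type hearts, 8.88-fold higher. Apof, which modulates lipid transfer between lipoproteins, was at -4.71, -4.87 and -4.28 in knockout hearts and at least 4.2-fold higher than in wild type hearts (-8.42, -8.18 and -8.25, none well above background). The Apof levels spanned 0.59 among knockout hearts and 0.24 among wild type hearts.

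The next genes act on triglyceride-rich particles and other lipoproteins. Apoc3, an inhibitor of lipoprotein lipase, was at -2.78, -2.97 and -2.72 in knockout hearts against -5.75, -7.25 and -7.43 in wild type hearts, of which 1 was well above background (3.99 ± 0.44). A second probe of Apoc3 gave a difference of 4.70. Apoc4 stood at -3.35, -3.43 and -2.97 in knockout hearts against -6.12, -6.28 and -6.10 in wild type hearts (2.92 ± 0.17) and the levels spanned 0.46 among knockout hearts and 0.18 among wild type hearts. Apoa5, a regulator of plasma triglycerides, was at -2.33, -1.80 and -1.62 in knockout hearts against -4.75, -5.70 and -8.67 in wild type hearts, 2 of them well above background. The lone low wild type heart c widens the SE of Apoa5 to 0.96 on a difference of 4.46. Apoh, or beta-2-glycoprotein I, stood at -2.98, -2.41 and -2.10 in knockout hearts against -4.50, -4.71 and -5.04 in wild type hearts (2.25 ± 0.27).

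Apob, the scaffold of very low and low density lipoproteins, overlapped between the genotypes with the probe used in the fit: it was at -4.98, -5.34 and -4.35 in knockout hearts against -4.37, -8.26 and -8.87 in wild type hearts. Wild type heart a reached the level of the knockouts, and it was the 1 wild type heart well above background. A second Apob probe gave -4.91, -5.04 and -4.35 in knockout hearts against -6.11, -7.94 and -8.91 in wild type hearts, with no overlap. Apoc1 stood at 5.45, 3.07 and 4.03 in knockout hearts against 4.80, 1.09 and 2.57 in wild type hearts, and its arrays fell in the same order as those of Hp and of the adipocyte list in each genotype. Apoc2, the activator of lipoprotein lipase, was at -1.09, -0.56 and -0.17 in knockout hearts against -1.0, -0.98 and -1.62 in wild type hearts (0.59 ± 0.29). Of the 10 apolipoproteins, the knockout hearts lay above every wild type heart for 7, against 9.14% of all genes, and Apob, Apoc1 and Apoc2 overlapped. Among the 10, 5 entered the fit through the knockout hearts alone. The members were picked on this contrast, so nothing is read from the count.

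Of the fibrinogen chains, which form the clot, 2 were measured in hearts. Fgb was at -1.48, -1.06 and -0.27 in knockout hearts against -3.26, -4.25 and -4.62 in wild type hearts (3.1 ± 0.44). Fgg stood at -2.0, -1.86 and -0.95 in knockout hearts against -4.18, -5.05 and -5.40 in wild type hearts (3.27 ± 0.40). In both, knockout heart c was the highest and wild type heart c the lowest of all hearts. The third chain, Fga, was not well above background on any heart, with levels of -7.17, -6.88 and -5.93 in knockout hearts against -8.27, -8.66 and -8.45 in wild type hearts.

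F2, the precursor of thrombin, was at -2.35, -2.21 and -1.74 in knockout hearts against -5.0, -6.81 and -7.22 in wild type hearts, 1 of them well above background (4.24 ± 0.57). Plg, the precursor of the clot-dissolving enzyme plasmin, was at -3.55, -3.38 and -3.0 in knockout hearts against -5.74, -6.58 and -6.43 in wild type hearts, 7.66-fold higher, and its second probe gave a difference of 3.49. F10, factor X, stood at -1.40, -2.07 and -0.50 in knockout hearts against -2.19, -2.5 and -2.72 in wild type hearts, a difference of 1.15 ± 0.39. The gap between the genotypes was narrow for F10, since knockout heart b lay 0.12 above wild type heart a. F9, factor IX, overlapped between the genotypes, at -5.07, -4.88 and -4.68 in knockout hearts and -4.80, -4.73 and -4.67 in wild type hearts (-0.14 ± 0.15). Kng1, the kininogen from which bradykinin is cut, was at -0.85, -3.57 and -2.66 in knockout hearts against -3.35, -6.52 and -5.19 in wild type hearts, where wild type heart a lay above knockout heart b. Within each genotype the hearts fell in the order a, c and b from high to low, which is also the order of the adipocyte list.

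Among protease inhibitors the members split. Serpina3k was at -2.29, -2.96 and -0.67 in knockout hearts against -4.03, -5.20 and -5.73 in wild type hearts (3.01 ± 0.68). Serpinc1, the thrombin inhibitor antithrombin, was at -2.75, -2.54 and -2.52 in knockout hearts against -5.35, -6.18 and -6.81 in wild type hearts, 2 of them well above background, a difference of 3.51 ± 0.36. Its second probe pointed the same way with a difference of 0.67, so the size depends on the probe. Serpina1d, a form of alpha-1-antitrypsin, was high in every heart, at 2.93, 3.60 and 3.61 in knockout hearts and 3.77, 3.51 and 3.31 in wild type hearts (-0.15 ± 0.24). Its family holds near-identical copies, whose signal the probe may share.

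Genes of the inter-alpha-trypsin inhibitor heavy chain family had small differences where they were tested. Itih3 was at -1.48, -0.88 and -0.89 in knockout hearts against -1.28, -1.30 and -1.52 in wild type hearts (0.28 ± 0.20), and Itih4 at -2.02, -2.40 and -2.31 in knockout hearts against -2.90, -2.63 and -2.57 in wild type hearts (0.46 ± 0.17). The Itih4 groups did not overlap although the difference was small. Itih1 was well above background on 1 of 3 knockout hearts and 1 of 3 wild type hearts. Mbl2, a mannose-binding lectin that starts the lectin pathway of complement, stood at -2.77, -2.58 and -3.11 in knockout hearts and was at least 13.5-fold higher than in wild type hearts (-6.14, -8.72 and -7.40, none well above background). C9, the pore-forming protein of complement, was well above background on 0 of 6 hearts.

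Major urinary protein genes were highest on knockout heart c. Mup1 was at 1.90, 1.24 and 3.08 in knockout hearts against -0.66, -1.41 and -2.03 in wild type hearts (3.44 ± 0.54). Mup4 was at 0.64, -0.44 and 2.08 in knockout hearts against -2.22, -2.74 and -3.61 in wild type hearts (3.61 ± 0.67). Mup5 was at -3.46, -4.47 and -2.57 in knockout hearts against -6.09, -6.95 and -8.03 in wild type hearts, of which 1 was well above background (3.52 ± 0.63). These 3 genes did not overlap between the genotypes, and knockout heart c, the knockout heart without Xist signal, was the highest for each. Mup3 was at -3.59, -3.87 and 0.21 in knockout hearts against -3.48, -4.82 and -5.12 in wild type hearts. Its knockout hearts a and b lay within the range of the wild type hearts, and knockout heart c stood 3.80 above a. Without knockout heart c the Mup3 difference was 0.74, against 2.06 with it, while that of Mup1 was 2.94 without it and that of Mup4 2.95. On the hearts without Xist signal, knockout heart c against the wild type hearts, the differences were 4.44 (Mup1), 4.68 (Mup3), 4.93 (Mup4) and 4.46 (Mup5). Xist signal was present on 2 knockout hearts and on 0 wild type hearts, and the part of sex in these values was not tested.

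**Figure D2:**
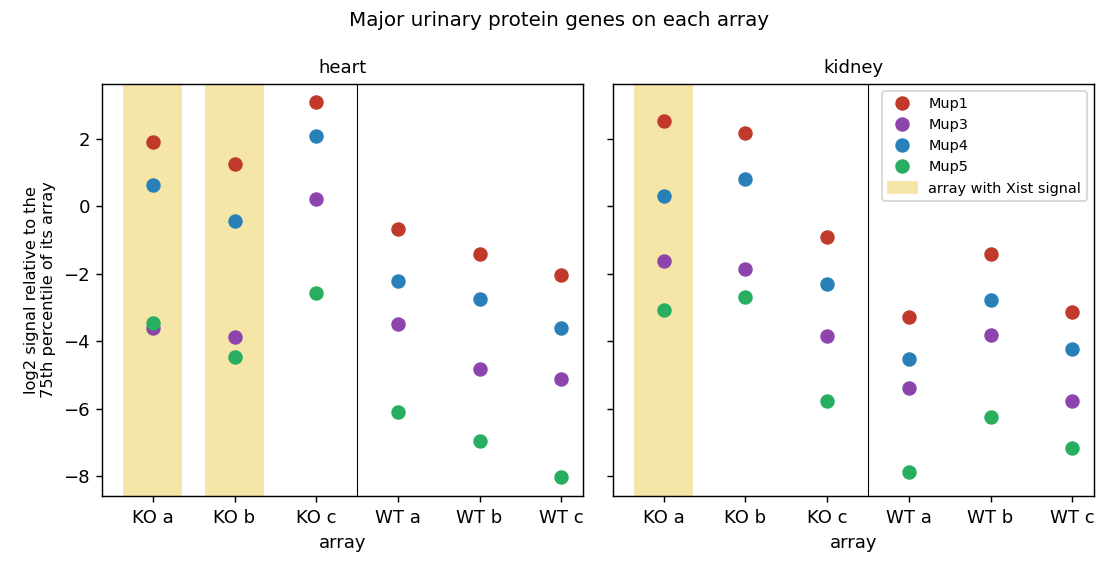
Level of Mup1, Mup3, Mup4 and Mup5 (log2 signal relative to the 75th percentile of the array) on each heart array and each kidney array, with knockout arrays left of wild type arrays and arrays with Xist signal shaded. In heart the unshaded knockout array c is the highest for all 4 genes, with Mup3 at 0.21 against -3.59 and -3.87 on the shaded arrays, and in kidney knockout arrays a and b stand above knockout array c.

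Arrays of a genotype also differed from each other in these genes. Of the 23 whose heart groups did not overlap, 21 were higher on knockout heart c than on knockout heart a, where 64.1% of all genes were. The median of these gaps was 0.88, and they ran from -0.34 (Mbl2) to 1.79 (Hpx). Between knockout hearts b and a there was no such order, since 13 of the 23 were higher on b (median 0.14), where 54.8% of all genes were. On wild type heart a 21 of the 23 were higher than on wild type heart b (median 0.75), where 43.8% of all genes were, and 19 were higher than on wild type heart c (median 1.26), where 45.8% were. Over the 33 tested members, the median level relative to the wild type mean was 2.63, 2.41 and 3.50 on the 3 knockout hearts (a, b, c) and 0.63, -0.07 and -0.33 on the 3 wild type hearts (a, b, c). In wild type hearts 23 members were well above background on all 3 arrays, 8 on some and 6 on none.

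Genes of liver beyond the 37 were examined in the same hearts. Of all genes tested in heart, 42.2% had a higher knockout mean and 0.578% were called higher. All 3 knockout hearts lay above all 3 wild type hearts for 9.14% of all genes. Of 73 other genes of liver-secreted proteins, 58 were tested, 36 had a higher knockout mean, 5 were called higher and 0 lower. Their median difference was 0.52, and their summed levels ran from 8.18 to 8.48 in knockout hearts and from 8.37 to 8.64 in wild type hearts. Apom, an apolipoprotein that carries sphingosine-1-phosphate, was at -3.75, -3.23 and -3.37 in knockout hearts against -7.39, -7.50 and -7.54 in wild type hearts, and no wild type heart was well above background. Of the 26 tested genes for hepatocyte enzymes and carriers that stay in the cell, 23 had a higher knockout mean, 12 were called higher and 0 lower, with a median difference of 2.17. Cps1, the entry enzyme of the urea cycle, was at -2.19, -3.35 and -1.99 in knockout hearts against -6.06, -7.32 and -7.90 in wild type hearts, and Fabp1, the liver fatty acid binding protein, at 0.05, 0.68 and 0.57 in knockout hearts against -3.01, -3.63 and -4.2 in wild type hearts. All 3 knockout hearts lay above all 3 wild type hearts for 16 of the 26. Their medians relative to the wild type mean were 2.20, 1.91 and 2.52 on the 3 knockout hearts (a, b, c), with summed levels of 4.64 to 5.70 in knockout hearts and 4.32 to 5.73 in wild type hearts. Of 5 liver transcription factors tested, 0 were called. Hnf4a, a regulator of hepatocyte genes, was at -6.07, -6.12 and -6.03 in knockout hearts and -6.24, -6.13 and -6.25 in wild type hearts.

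Markers of other cells of the liver and of neighbouring organs were read beside the members. Of 8 genes of Kupffer cells and liver endothelium 6 had a higher knockout mean in heart and 0 were called, with summed levels of 2.45 to 3.98 in knockout hearts and 2.44 to 3.27 in wild type hearts. Clec4f, a receptor of Kupffer cells, stood at -3.09, -2.21 and -1.77 in knockout hearts against -1.50, -1.02 and -1.37 in wild type hearts, so it was lower in every knockout heart. Marco, a scavenger receptor of macrophages, had the widest difference of that list, at 2.25, -0.31 and 2.30 in knockout hearts against 0.46, -2.0 and -2.16 in wild type hearts, and its groups overlapped. Of 6 cholangiocyte genes and 9 genes of exocrine pancreas 0 were called, with median differences of 0.48 and 0.13. Thymus and T cell genes were high on knockout hearts a and b (medians 5.23 and 6.42, summed levels of 1.08 to 8.16 in knockout hearts and 0.27 to 1.35 in wild type hearts) and not on knockout heart c (0.37). Lung and airway genes were high on knockout heart a (9.42) and on wild type heart a (2.07), with 0.24 and 0.49 on knockout hearts b and c, and summed levels of -0.10 to 8.05 in knockout hearts and -0.90 to 1.79 in wild type hearts. Of the 5 genes of red cell precursors 1 was called higher, Hemgn, against 0.578% of all genes, and no wild type heart was well above background for it. The 8 heart muscle genes had a median difference of -0.15 with 0 called. The part of any of these cells in the member values was not tested.

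**Figure D3:**
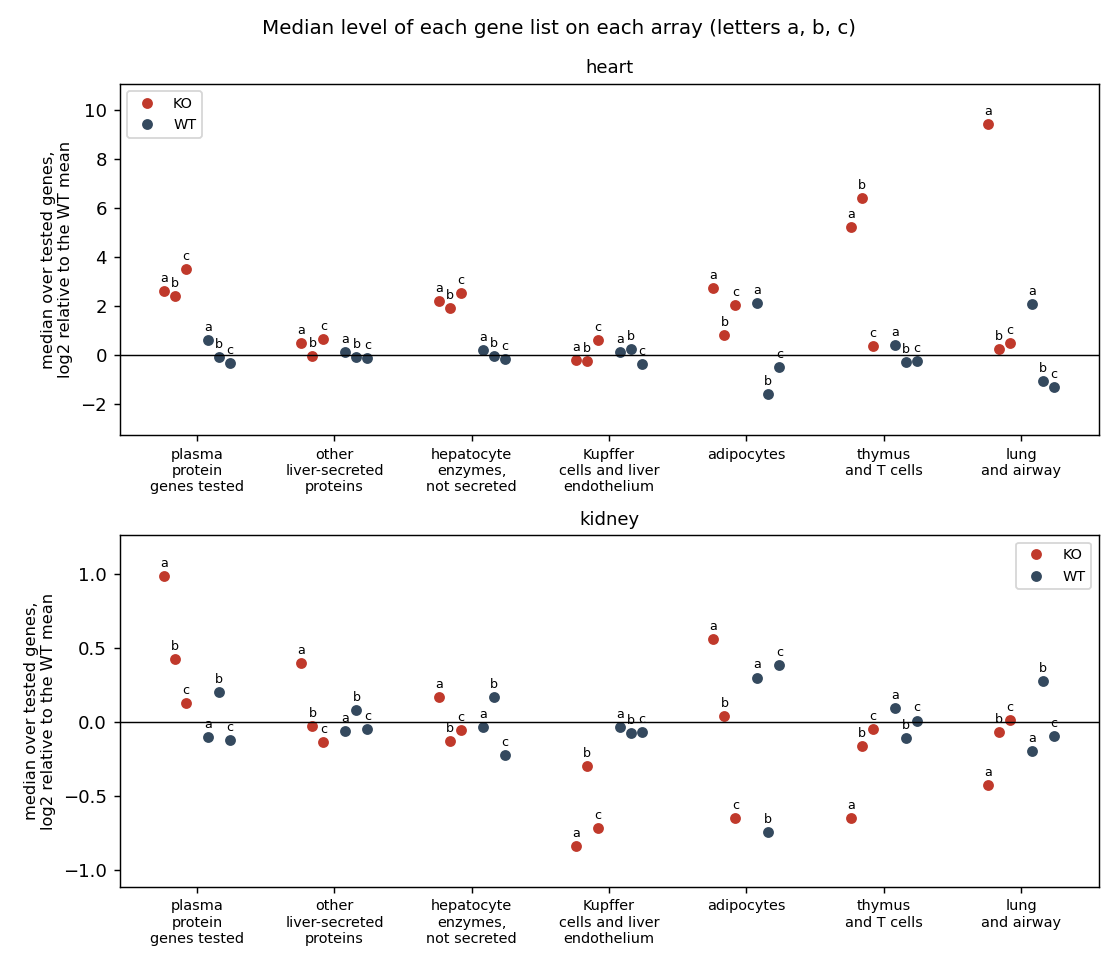
Median level of the tested genes of each list on each heart array (upper panel) and each kidney array (lower panel), in log2 units relative to the mean of the wild type arrays of that tissue, with knockout arrays left of wild type arrays. The plasma protein genes and the hepatocyte enzymes are high on all 3 knockout hearts, while thymus genes are high on knockout hearts a and b and lung genes on knockout heart a.

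Which members kidney itself expresses was read from the wild type kidneys. There, 28 of the 37 were well above background on all 3 arrays, 5 on some and 4 on none, and the same number of 28 was well above background on all 6 kidneys. For 11 of them the wild type kidneys exceeded the wild type hearts by 4.11 to 9.47 log2 units on the same probe, and the next member below followed at 2.20. These 11 were Apob, Kng1, Fgg, Fga, Mbl2, Apoh, Gc, Apoc3, Itih1, Serpinc1 and Fgb, a group formed after its values were seen. Of the 3 wild type hearts, 0 were well above background for Fga and Mbl2, and 1 for Apob, Apoc3 and Itih1. For Kng1 and Serpinc1 it was 2. The sizes of these gaps therefore rest in part on heart signals not well above background. Kng1 stood at 2.34 ± 0.04 in wild type kidneys and -5.02 ± 1.59 in wild type hearts (SD, n = 3 each). Apob stood at 1.82 ± 0.43 in wild type kidneys and -7.65 ± 1.42 in wild type hearts with its kidney probe. Fgg, at 1.93 ± 0.46 in wild type kidneys, also lay above its 3 knockout hearts. Trf (0.68 ± 0.50) and Itih4 (-5.18 ± 0.64) were lower in wild type kidneys than in wild type hearts, with kidney minus heart differences of -2.37 and -2.48. Apoa1, Hpx, Apof and Mup5 were well above background on 0 of 3 wild type kidneys.

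In kidneys, 34 of the 37 members entered the fit, all but Ttr, Apof and C9. At an adjusted p under 0.05 in limma 0 of the 34 were called in either direction, where 0.163% of all genes were called, and 11 had an unadjusted p under 0.05, against 13.2% of all genes. Of the 11, 5 (Hpx, Apoa1, Apoa2, Serpina3k and Mup5) entered the fit through the knockout kidneys alone. The knockout mean was higher for 25 and lower for 9, where it was higher for 41.5% of all genes, and the median difference was 0.39, where that of all genes was -0.07. All 3 knockout kidneys lay above all 3 wild type kidneys for 10 members, against 8.77% of all genes, and below them for 0, against 12.6% of all genes. The same 5 are among these 10, and their entry favours a difference. The other 5, Apoa5, Apoc3, F10, Mup1 and Mup4, were well above background in every wild type kidney. With 3 arrays on each side, no exact two-sided permutation p can fall under 0.10, and the p-values given are those of limma.

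Apoa1 had the smallest adjusted p of the members. It was at -4.82, -4.48 and -5.95 in knockout kidneys against -7.73, -7.92 and -8.08 in wild type kidneys, none of which was well above background. The difference of 2.83 ± 0.38 had an adjusted p of 0.0579 by limma, and the signal was at least 2.81-fold higher. Apoa2 was at -1.60, -1.09 and -3.40 in knockout kidneys against -4.88, -5.90 and -4.82 in wild type kidneys, with a difference of 3.17 ± 0.62 and an adjusted p of 0.115 by limma. Knockout kidney c was the lowest knockout for both. Apoa5 stood at -2.91, -3.24 and -4.96 in knockout kidneys against -5.63, -5.25 and -6.30 in wild type kidneys (2.02 ± 0.56, adjusted p of 0.208 by limma). Apoc3 was at -0.34, -0.52 and -0.46 in knockout kidneys against -1.28, -0.65 and -1.19 in wild type kidneys, a difference of 0.59 ± 0.21 (adjusted p of 0.291 by limma).

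The other apolipoproteins overlapped in kidney. Apob was at 2.55, 1.42 and 1.31 in knockout kidneys against 1.34, 1.95 and 2.17 in wild type kidneys (-0.06 ± 0.39, adjusted p of 0.957 by limma), and 3 of its 5 probes had a higher knockout mean. Apoc4 was at -2.96, -4.54 and -5.62 in knockout kidneys against -7.58, -6.92 and -4.29 in wild type kidneys, where wild type kidney c lay above knockout kidneys b and c. Apoh was at -3.08, 0.74 and 1.11 in knockout kidneys against 1.20, 1.54 and 0.82 in wild type kidneys. Knockout kidney a, the kidney with Xist signal and the only array on its slide, stood 3.82 below the next lowest kidney in Apoh. Without knockout kidney a the difference was -0.26, against -1.60 with it. Apoc1 and Apoc2 gave -0.36 ± 0.29 and 0.29 ± 0.26.

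Among carriers, Hpx was at -3.07, -4.04 and -5.45 in knockout kidneys against -6.84, -6.02 and -7.06 in wild type kidneys (2.45 ± 0.60, adjusted p of 0.163 by limma), at least 5.17-fold higher. Alb was at 1.28, -0.05 and -0.88 in knockout kidneys against -1.25, -0.81 and -0.70 in wild type kidneys. Its knockout kidney c lay below 2 wild type kidneys, and the difference of 1.04 ± 0.52 had an adjusted p of 0.460 by limma. Gc was at 3.06, 0.75 and 0.55 in knockout kidneys against 1.05, 0.53 and 0.81 in wild type kidneys, and its difference was 0.65 with knockout kidney a and -0.15 without it. Ambp gave 1.21 ± 0.53, Trf 0.13 ± 0.33 and Hp -0.23 ± 0.21, each with overlapping groups.

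Clotting genes had kidney differences between -0.32 and 0.99. F10 was at -1.74, -2.63 and -2.87 in knockout kidneys against -3.27, -3.35 and -3.22 in wild type kidneys (0.87 ± 0.30, adjusted p of 0.287 by limma). Fgg was at 1.70, 1.63 and 1.51 in knockout kidneys against 1.80, 2.44 and 1.56 in wild type kidneys (-0.32 ± 0.25, adjusted p of 0.614 by limma), and its levels lay within 0.94 of each other. Fga, Fgb, Plg, Kng1, F9 and F2 had differences from 0.11 (Kng1) to 0.99 (F2), all with overlapping groups. Serpina3k was at -1.97, -2.93 and -4.71 in knockout kidneys against -5.99, -6.43 and -6.38 in wild type kidneys, with a difference of 3.07 ± 0.64 and an adjusted p of 0.127 by limma, and its second probe gave 3.58. Serpinc1 (-0.12 ± 0.27), Serpina1d (-0.003 ± 0.19), Itih1 (0.14 ± 0.38), Itih3 (-0.40 ± 0.56) and Itih4 (0.31 ± 0.44) overlapped. Mbl2 was at -0.30, -2.21 and -2.97 in knockout kidneys against -1.05, -1.08 and -1.14 in wild type kidneys, so the knockouts lay on both sides of the tight wild types.

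Of the major urinary protein genes, Mup1, Mup4 and Mup5 had the widest kidney differences among the members tested. Mup1 was at 2.51, 2.16 and -0.90 in knockout kidneys against -3.27, -1.41 and -3.14 in wild type kidneys, a difference of 3.87 ± 0.96 with an adjusted p of 0.168 by limma. Mup4 was at 0.32, 0.82 and -2.30 in knockout kidneys against -4.53, -2.78 and -4.24 in wild type kidneys (3.46 ± 0.86, adjusted p of 0.168 by limma). Mup5 was at -3.07, -2.67 and -5.78 in knockout kidneys and at least 6.66-fold higher than in wild type kidneys (-7.86, -6.23 and -7.17, none well above background). Mup3 was at -1.61, -1.84 and -3.85 in knockout kidneys against -5.39, -3.81 and -5.75 in wild type kidneys, where knockout kidney c lay just below wild type kidney b. In all 4 genes knockout kidneys a and b stood close together and knockout kidney c lay nearer to wild type kidney b. Knockout kidney a has Xist signal and knockout kidney b does not, and the part of sex in these values was not tested.

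Knockout kidney c was the lowest knockout for the other genes that stood apart as well, except Apoc3, whose lowest was knockout kidney b. All 10 members whose kidney groups did not overlap were lower on knockout kidney c than on knockout kidney a. Of all genes, 52.9% were higher on knockout kidney c than on knockout kidney a. The median of the members' gaps was -2.22, from -3.41 (Mup1) to -0.12 (Apoc3). When knockout kidney c was left out limma called 8 members higher, against 0.155% of all genes called higher. They were Mup1, Mup4, Mup5, Apoa1, Apoa2, Apoa5, Apof and Serpina3k, and Apoa1 had an adjusted p of 0.0160 by limma. Of these 8, Apoa1, Apoa2, Apof, Serpina3k and Mup5 were not well above background on every wild type kidney. Within the slide that held knockout kidneys b and c and wild type kidneys a and b the differences were 2.61 for Apoa1, 3.15 for Apoa2 and 2.97 for Mup1, with adjusted p of 0.0649, 0.109 and 0.207 by limma and 0 members called. Of hepatocyte enzymes and carriers 23 were tested in kidney, 12 had a higher knockout mean and 0 were called, with a median difference of 0.04. All knockout kidneys lay above the wild type kidneys for 7 of them and below for 2, against 8.77% and 12.6% of all genes. The widest differences of that list were those of Uox and Arg1. Neither was well above background on any wild type kidney, so both entered the fit through the knockout kidneys alone. Uox, the urate oxidase of liver peroxisomes, was at -3.34, -4.09 and -5.74 in knockout kidneys against -7.13, -6.96 and -7.29 in wild type kidneys, and Arg1, the arginase of the urea cycle, at -3.69, -5.11 and -6.22 in knockout kidneys against -7.07, -8.10 and -7.16 in wild type kidneys, so knockout kidney c was again the lowest knockout. Of the 7 tested genes of Kupffer cells and liver endothelium, 0 had a higher knockout mean in kidney, against 41.5% of all genes. All knockout kidneys lay below all wild type kidneys for 5 of them, against 12.6% of all genes. Their median difference was -0.60, and 0 were called. The part of cells of other organs in these values was not tested.

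**Figure D4:**
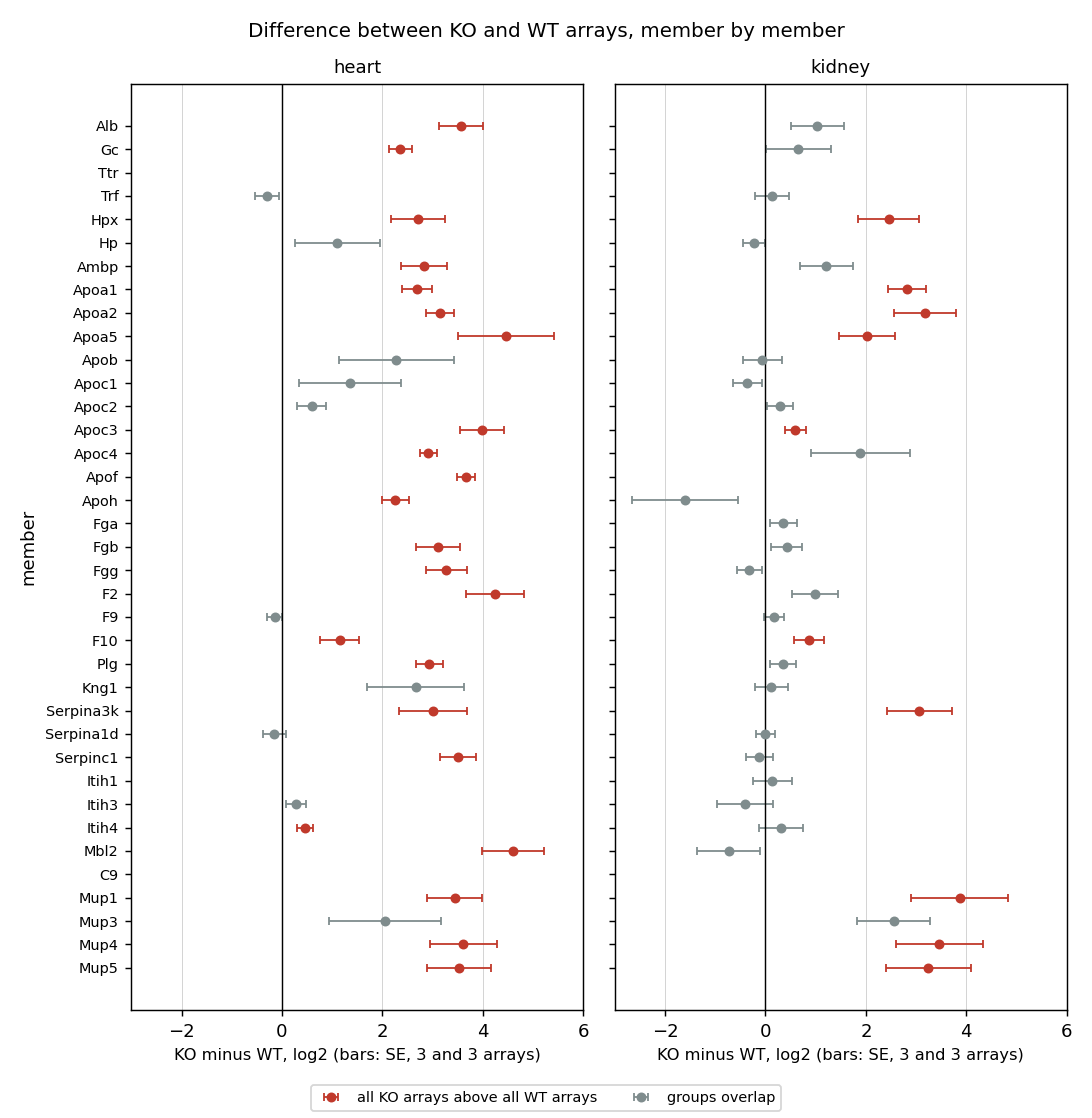
Knockout minus wild type difference (log2, points) with its SE (bars) for each member in heart (left) and kidney (right), with 3 arrays per genotype in each tissue. Red points mark members whose knockout arrays all lay above the wild type arrays, 23 in heart (against 9.14% of all genes) and 10 in kidney (against 8.77%). A member without a point was not tested in that tissue.

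Side by side, the 2 tissues shared some members and not others. All 10 members whose kidney groups did not overlap were also among the 23 in heart. The 11 members that wild type kidneys express far above wild type hearts had kidney differences between -1.60 and 0.65 with a median of 0.11, and 1 of them, Apoc3, had groups that did not overlap. Fgg, for example, gave 3.27 ± 0.40 in heart and -0.32 ± 0.25 in kidney, and Serpinc1 gave 3.51 ± 0.36 and -0.12 ± 0.27. The 6 kidney members that entered the fit through the knockouts alone had differences from 1.89 to 3.25, which that entry favours. The 28 seen in all wild type kidneys had differences from -1.60 to 3.87 with a median of 0.30. These groupings and that of the 11 rest on wild type kidney values, which are part of each difference. Nothing is therefore read from a comparison between the groupings. Over the 32 members tested in both tissues, heart and kidney differences had a Pearson r of 0.37 and a Spearman rho of 0.39, given as a description over genes that share arrays. The difference between the tissues was not tested for single members.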

How the data were processed

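Total RNA of 12 heart and kidney samples was labelled with Cy3 and hybridised to 1-colour Agilent mouse arrays. The intensity values are the deposited processed signals of Agilent's Feature Extraction (version 9.5.3.1 per the file headers, 9.1 per the submitters' processing notes), background-subtracted and not scaled between arrays. The log2 values of the authors' deposited table were an alternative; each of its columns is centred per probe and follows the scanner array of the other genotype with the same letter and tissue (r from 0.999878 to 0.999984), while with the array of its own label r lay between -0.27 and -0.056. Whether a probe is well above background was taken from the deposited flags.

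From these files the log2 processed signal minus the 75th percentile of each array over probes that are not controls was computed, outlier spots were left out and spots of a probe averaged. A gene was tested in a tissue if a probe had signal well above background on each array of either group there, and the probe of highest mean was used. limma 3.58.1 in R 4.3.3 (lmFit and eBayes on 6 arrays, no covariate, Benjamini-Hochberg over all genes) gave differences, SE and adjusted p for 17482 genes in heart and 17227 in kidney. Genes were named by accession (22944 of 41174 probes), symbol (6664), synonym (3108) or the name in the files (8458). The method was tested on simulated data. Coordinates of probes are of build mm7 per the file headers.

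The titles carry letters but do not say that a letter pairs a knockout heart with a wild type heart. Same-letter deviations of the hearts from the group means correlated at 0.385, 0.186 and 0.256 for a, b and c. For this reason the count with the letter block stands beside the heart count. Alternatives were other scalings, background correction, filters, probe means, blocks, sex by Xist, and each array left out. The members and gene lists were chosen with earlier results of these data known. All members are named, and from each other list at most 4 genes, those with the largest differences. The number of arrays limits the precision.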

Additional observations from a re-analysis of the deposited data

Results flagged for a closer look

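Of the 32 members tested in both tissues, 10 had differences of opposite sign: Trf, Hp, Apob, Apoc1, Apoh, Fgg, F9, Serpinc1, Itih3 and Mbl2. Apoh and Fgg are the 2 in which each knockout array of a tissue lay on the same side of the wild type mean, above it in heart and below it in kidney. Mbl2 gave 4.60 in heart and -0.74 in kidney, where knockout kidney a lay above the wild type kidneys. For Apoh the knockout minus wild type difference was 2.25 in heart, with every knockout heart above the wild type hearts, and -1.60 in kidney, with every knockout kidney below the wild type mean and knockout kidney a far below the others. For Fgg the difference was 3.27 in heart and -0.32 in kidney, where the knockout kidneys lay below the wild type mean and overlapped with wild type kidneys. The difference between the tissues was not tested for either gene. With 3 arrays per group, single arrays were not examined for outliers.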

How the results depend on the processing

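The count of 14 members called higher in heart changed with the processing. All genes called higher in the same setting stand in brackets, 101 of 17482 in the main fit. With quantile scaling limma called 7 members (51 genes), with normexp 4 (15) and with no filter on dim probes 6 (50 of 27670). It called 5 with a filter on every array (26 of 16593), 3 with the replicate block (50) and 9 with Xist as a covariate for sex (75). On the arrays without Xist signal, a setting chosen after seeing the data, the median member difference was 3.25. Leaving out 1 heart gave 2 to 20. The count was 2 without wild type heart b (23 of 17531 genes), 3 without wild type heart c (31 of 17582) and 4 without knockout heart b (62 of 17659). It was 7 without knockout heart a (50 of 17509) and 20 without knockout heart c (1467 of 18238). Over all genes the heart count in either direction was 116 and ran from 17 with normexp to 2251 without knockout heart c. The median member difference in heart, 2.83, was 1.08 with normexp, which adds an offset that shrinks differences of dim probes, and 3.50 with Xist as a covariate. It ran from 2.5 to 3.19 when 1 heart was left out. In kidney 2 members (Apoa1 and Apoa2, not well above background on every wild type kidney) were called with median scaling, where 0.163% of all genes were called higher, and the same 2 in a fit of all 12 arrays, where 0.238% were, against 0 members in the 6 kidneys. Leaving out 1 kidney gave 0 to 8, the 8 without knockout kidney c, where 0.155% of all genes were called higher. The medians then ran from 0.28 to 0.60. With slide as a block and within the shared slide 0 were called and the median was 0.18. Same-letter deviations of the kidneys correlated at 0.103, -0.012 and -0.147, and the replicate block called 0. Of 552 heart values of single members over 17 alternatives 545 kept their sign and 60 moved by more than the spread of the arrays, and of 606 kidney values over 18 alternatives 563 kept theirs. A slide block in heart was not run, since each slide holds 1 genotype. The causes were not tested.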
